A study of Homo sapiens with 10 samples.

Results

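Mutant KDM5A was compared with empty vector in HCT116 cells labelled KDM5A-/-. HCT116 is a human colorectal carcinoma line. The comparison holds 5 of the 10 libraries of the series, chosen by their labels: 2 libraries of knockout cells that received a plasmid for a mutant KDM5A and 3 libraries of knockout cells that received the empty vector. Both groups shared the KDM5A-/- genotype, medium with 5% FBS and 300 ug/mL G418, transfection, a sort for GFP-positive cells and collection at 24 h. Further groups were knockout cells given a plasmid for wild-type KDM5A (3 libraries, same conditions) and parental HCT116 cells given the empty vector (2 libraries, no G418 in their medium). The labels do not name the mutation. Per the labels, 1 purchased knockout line was used, so any property of that line is shared by both sides of the comparison. The labels do not state whether libraries of 1 group were grown as separate cultures. All p-values here therefore reflect the spread among these libraries, which may be technical.

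KDM5A belongs to the KDM5 family of demethylases, which act on methylated lysine 4 of histone H3, a modification found at active promoters. It is known to work with SIN3 and histone deacetylase complexes and to bind the retinoblastoma protein. SMYD2, named in the series title together with KDM5A, is a protein lysine methyltransferase.

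Levels are given as the deposited FPKM values, turned back from the log2 scale and scaled between libraries, and they are normalised for gene length. Fold changes are differences of log2(level + 1), from a limma fit over 17779 genes, and a gene passed the test at a Benjamini-Hochberg adjusted p under 0.05. KDM5A (chromosome 12, 280129 to 389454, GRCh38, as for all gene positions here) stood at 12.2, 15.3 and 12.3 with empty vector and at 23346 and 22816 with the mutant plasmid, so the transcript followed the plasmid label. The parental libraries stood at 13.3 and 17.7, near the empty-vector knockout libraries, so the gene-level value is no check of the knockout itself. Epithelial genes were expressed in all 10 libraries, with EPCAM at 271 to 389 and CDX2, an intestinal transcription factor, at 12.5 to 18.9. Of the differentiated intestinal markers, CDX1 was listed at 0 in both mutant libraries and KRT20 was at 0.329 and 1.28. Of 24 markers of fibroblasts, leukocytes, endothelium and neurons, 21 stayed under 2 in all 10 libraries, and the fibroblast gene LUM was listed at 0 in all. The collagen gene COL1A1 was at 13.5 to 28.7 and ITGAM at 0.855 to 6.81. The monocyte gene CD14 was at 1.88, 1.28 and 1.17 with empty vector and at 4.05 and 6.41 with the mutant (adjusted p = 0.00605). With the wild-type plasmid CD14 was at 3.87 to 4.79. The 8 leukocyte markers summed to 3.85 to 4.84 with empty vector and 6.76 to 14.2 with the mutant. CD14 and ITGAM made up most of these sums, and ITGAM was at 1.76 and 6.81 with the mutant against 2.17 to 3.27 with empty vector. In the mutant libraries PTPRC was at 0.706 and 0.00159 and CD3E was listed at 0. Whether leukocytes had a part in the results was not tested.

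The mutant libraries differed from the empty-vector knockout libraries in make-up. Protein-coding genes took 90.6% and 90.7% of the summed values with the mutant and 92.7% to 92.8% with empty vector. Ribosomal protein genes took 15.2% and 15.8% against 12.6% to 13.4%, and small non-coding RNAs took 1.59% and 1.55% against 0.859% to 0.988%. Parental library 2, which received no KDM5A plasmid, shared this make-up (89.9%, 15.7% and 1.32%), and parental library 1 did not (92.7%, 13.9% and 0.813%). The difference between the 2 parental libraries, written below as parental 2 minus 1, is therefore given beside most gene groups. Its part in each result was not tested.

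With mutant KDM5A, 1685 of 17779 genes were higher (9.48%) and 1254 were lower (7.05%), 2939 in all (16.5%). Of these, 2524 were protein-coding. The median over all genes tested was -0.01. On the values as deposited, which are not scaled between libraries, the median gene shifted by -0.30 and the split was 466 higher and 6149 lower. The count fell to 1464 without empty-vector library 2, to 1359 without empty-vector library 3 and to 1215 without mutant library 1. In a fit that also held the percent of protein-coding RNA per library, called the covariate below, 144 genes passed (0.81%). These held 88 of the higher and 36 of the lower genes. Within groups this percent varied mainly between the parental libraries (92.7% and 89.9%), and it was low in both mutant libraries. The covariate is thus hard to separate from the mutant label, and a call lost with it does not show that a change is absent. With it the median of interferon-stimulated genes went from 0.42 to 0.39 and that of cytosolic ribosomal proteins from 0.56 to 0.33.

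**Figure D1:**
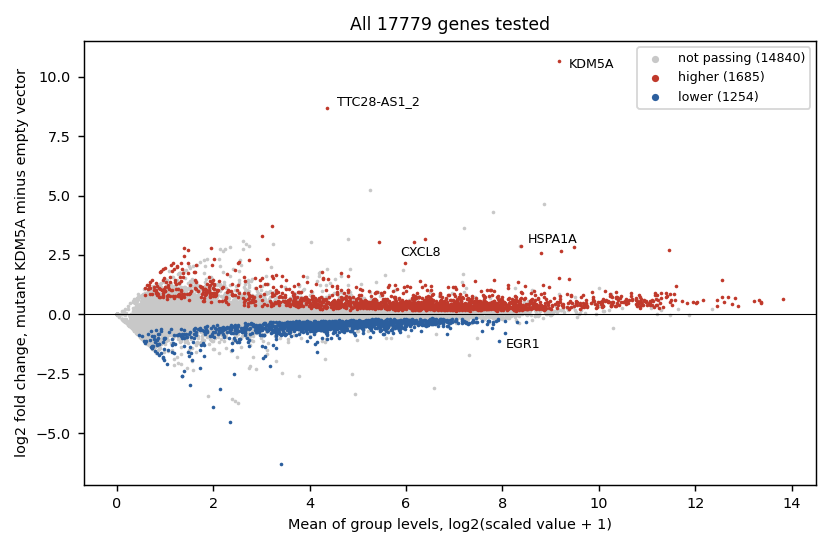
Difference between mutant KDM5A and empty vector in knockout cells (vertical axis, log2 of the scaled value plus 1) against the mean of both group levels (horizontal axis, same scale), 1 point per gene, red for the 1685 genes that passed as higher, blue for the 1254 that passed as lower and grey for the rest. KDM5A stands at the top right, HSPA1A and CXCL8 lie high in the red cloud and EGR1 low in the blue one.

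Genes of the heat shock list rose with the mutant. Of 28 tested members, 20 were higher and 1 was lower, with a median of 0.45 (all genes -0.01). HSPA1A (chromosome 6, 31815464 to 31817946), an inducible HSP70, was at 116, 127 and 120 with empty vector and at 925 and 879 with the mutant. Every mutant library was far above every empty-vector library, a 7.46-fold difference of means (log2 fold change 2.89, SE 0.15, adjusted p = 4.04e-05). Its neighbour HSPA1B encodes a nearly identical protein, and how the authors' counting divided reads between the pair is uncertain. HSPA1B was at 175, 184 and 181 against 1091 and 1087. DNAJB1, an HSP40 co-chaperone that delivers substrates to HSP70, was at 144, 141 and 143 against 298 and 290 (log2 fold change 1.04, SE 0.04, adjusted p = 8.9e-06). BAG3, a nucleotide exchange factor of HSP70, was at 143, 144 and 144 against 209 and 218. The parental libraries stood at 147 and 233 for HSPA1A, below both mutant libraries, and at 135 and 134 for DNAJB1. The list's median for parental 2 minus 1 was 0.13. With the covariate 6 members passed, HSPA1A, HSPA1B, DNAJB1 and BAG3 among them, and with quantile normalization 9 did, with a median of 0.12.

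HSPA6 is an HSP70 gene that is nearly silent in unstressed cells. It was at 0.0404 and 0.121 and listed at 0 with empty vector, and at 3.56 and 3.94 with the mutant (adjusted p = 0.000387). HSPA6 was chosen after its values were seen, for the heat shock element in its promoter, the inverted repeats that heat shock factor binds. The motif was searched as the runs GAA, TTC and GAA, or TTC, GAA and TTC, each 2 bases apart, which covers both strands, in RefSeq promoters that run from 250 bases before to 50 bases after each gene's start (GRCh38.p14). It was in 0.49% of 27305 promoters and in 5 of the 25 tested heat shock genes with a promoter, and HSPA1A has no match in this window. The stretch of the HSPA6 promoter is shown 5′ to 3′ with the match in capitals (chr1:161524426-161524498, plus strand).
HSPA6: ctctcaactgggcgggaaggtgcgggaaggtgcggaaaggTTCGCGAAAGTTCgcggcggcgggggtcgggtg

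Chaperones of the endoplasmic reticulum, which fold secreted and membrane proteins, rose as well. Of 24 tested members of the list, which also holds sensors of the unfolded protein response, 16 were higher and 0 were lower, with a median of 0.48. HSPA5, the HSP70 of this compartment, was at 633, 587 and 611 with empty vector and at 1064 and 976 with the mutant, without overlap (log2 fold change 0.74, SE 0.06, adjusted p = 0.000426). DNAJB9, a co-chaperone of HSPA5, had a mean of 24.1 ± 0.793 (SD, n = 3) with empty vector and was at 42.5 and 44.1 with the mutant (log2 fold change 0.82). CRELD2 rose by 0.62 and the disulfide isomerase gene PDIA4 by 0.49 on the log2 scale. CALR, the lectin chaperone calreticulin, rose by 0.59. The median for parental 2 minus 1 was 0.05, 7 members passed with the covariate, and 16 passed without parental library 2. With quantile normalization 11 passed, with a median of 0.19. HSPA5 then rose by 0.23 and did not pass (adjusted p = 0.0706), and PDIA4 rose by 0.18. Between 15 and 16 members passed with any 1 of the 5 compared libraries left out.

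The ER stress element, searched as CCAAT and CCACG 9 bases apart on either strand, was in 0.08% of promoters and in 6 of 23 promoters of this list. The HSPA5 promoter is shown because it holds 1 of these matches (chr9:125241371-125241449, minus strand, match in capitals).
HSPA5: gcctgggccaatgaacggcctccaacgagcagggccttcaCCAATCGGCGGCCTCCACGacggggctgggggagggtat

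Interferon-stimulated genes, which encode antiviral proteins, rose in 24 of 44 cases and 0 were lower, with a median of 0.42 and a median of -0.00 for parental 2 minus 1. IFIT1, which binds foreign RNA, was at 11.0, 9.99 and 9.49 with empty vector and at 27.2 and 25.6 with the mutant (log2 fold change 1.30, SE 0.08, adjusted p = 0.000106). IFI6 was at 36.5, 34.9 and 32.1 against 81.6 and 84.8 (log2 fold change 1.25). ISG15, a ubiquitin-like modifier, was at 299, 273 and 281 against 575 and 561 (log2 fold change 0.99). For all 3 genes the mutant libraries were above every empty-vector library and above both parental libraries. IFIT2 rose by 0.997 on the log2 scale. The number of members that passed was 14 without empty-vector library 2, 13 without empty-vector library 3, 10 without mutant library 1, 21 with quantile normalization and 4 with the covariate. Of 8 tested interferon and sensor genes, 0 were higher and 1 was lower.

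The interferon-stimulated response element, searched as GAAA and GAAA, or TTTC and TTTC, 2 bases apart, was in 3.65% of promoters and in 22 of 35 promoters of the interferon list. It was in 12 of the 17 of these that were higher. The 3 promoters of the genes described above are shown with every match in capitals, overlapping matches included (IFIT1, chr10:89392467-89392549, plus strand; IFI6, chr1:27672256-27672388, minus strand; ISG15, chr1:1013344-1013419, plus strand).
IFIT1: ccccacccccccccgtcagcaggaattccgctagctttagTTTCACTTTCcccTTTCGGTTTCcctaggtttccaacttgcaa
IFI6: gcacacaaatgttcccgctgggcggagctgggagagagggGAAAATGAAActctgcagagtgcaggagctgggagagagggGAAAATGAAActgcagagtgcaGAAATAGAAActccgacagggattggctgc
ISG15: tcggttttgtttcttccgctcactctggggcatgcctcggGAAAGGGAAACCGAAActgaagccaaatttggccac
IFIT1 and IFI6 hold 2 and 3 matches, and in ISG15 the 2 matches overlap.

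Antigen presentation genes had 7 of 20 members higher and 0 lower, with a median of 0.21 and a median of -0.04 for parental 2 minus 1. HLA-B, a class I heavy chain whose reads can be shared with other HLA genes, rose by 0.34. This count was 3 without mutant library 1 and 1 with quantile normalization.

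In the list of chemokines and cytokines 6 of 15 tested members rose and 1 was lower, with a median of 0.25 (parental 2 minus 1, 0.09). Among the 6 were CXC chemokines, which attract neutrophils. CXCL8 (chromosome 4, 73740506 to 73743716) was at 29.4, 26.6 and 29.8 with empty vector and at 150 and 116 with the mutant. The groups were far apart, with a 4.66-fold difference of means, and the parental libraries were lower still at 15.5 and 16.6 (log2 fold change 2.17, SE 0.10, adjusted p = 1.4e-05). CXCL3 was at 3.84, 3.45 and 3.82 against 12.5 and 12.9 (log2 fold change 1.54). CXCL1 was at 7.26, 5.05 and 5.27 against 19.0 and 16.5 (log2 fold change 1.46). LCN2, a secreted protein that binds bacterial siderophores, rose by 1.54. Of the 6, 4 also passed with the covariate. Of 20 NF-kB subunits and feedback genes, 4 were higher and 1 was lower, with a median of -0.00 (parental 2 minus 1, -0.05). The inhibitor gene NFKBIB rose by 0.42, and the count of 4 was 2 without empty-vector library 3 and 1 without mutant library 1.

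A NF-kB site, searched as GGAATTTCC or GGAAATTCC, was in 0.47% of promoters, in 4 of 11 chemokine promoters and in 4 of the 6 that were higher. CXCL8 and CXCL1 are shown with the match in capitals (chr4:73740438-73740506 and chr4:73869275-73869343, both plus strand).
CXCL8: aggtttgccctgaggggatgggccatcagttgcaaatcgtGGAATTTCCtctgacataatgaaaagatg
CXCL1: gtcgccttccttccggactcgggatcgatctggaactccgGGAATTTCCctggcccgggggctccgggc
Both hold 1 match.

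Among p53 targets, 8 of 28 were higher and 2 were lower, with a median of 0.17 and a median of -0.07 for parental 2 minus 1. GADD45A, a growth arrest and DNA damage gene, was at 287, 284 and 273 with empty vector and at 485 and 573 with the mutant (log2 fold change 0.90, SE 0.08, adjusted p = 0.000566). GDF15, a stress-induced cytokine, was at 413, 432 and 414 against 665 and 691, but the parental libraries were higher than both groups at 786 and 789. The pro-apoptotic BH3 gene BBC3 rose by 0.56 and TP53INP1 by 0.59. With quantile normalization 5 members were higher and 3 lower, with a median of 0.08. GDF15 then rose by 0.27 and did not pass (adjusted p = 0.0856). With the covariate 5 members passed, and between 6 and 9 rose with any 1 of the 5 libraries left out. The 2 lower members were 0 without mutant library 1 and 1 without any 1 empty-vector library.

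**Figure D2:**
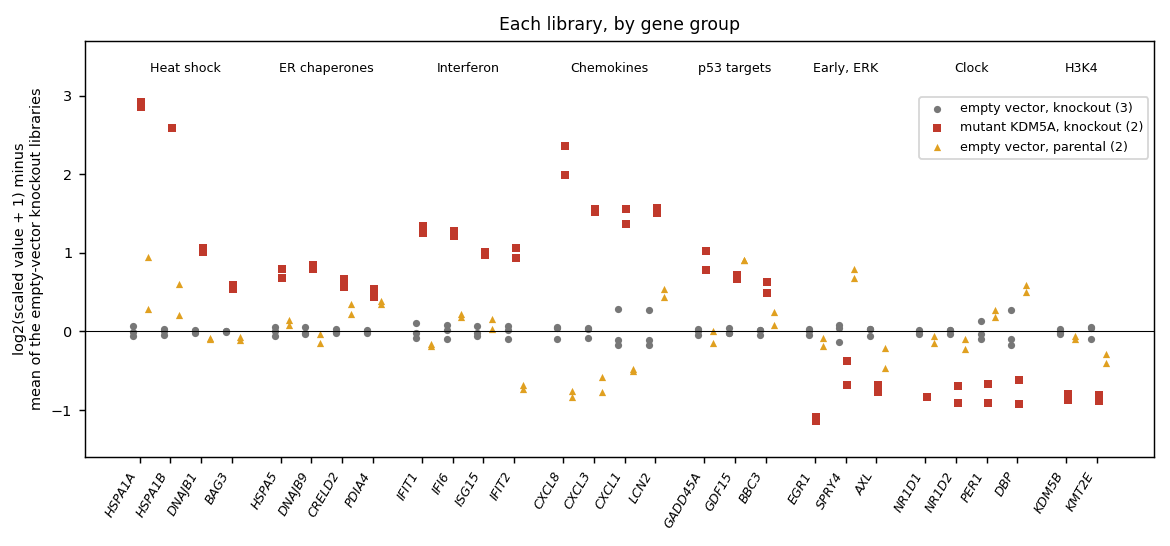
Level of 28 genes in each library, as log2(scaled value + 1) minus the mean of the 3 empty-vector knockout libraries (vertical axis), grouped by the lists described in the text (horizontal axis). Grey circles are empty-vector knockout libraries, red squares mutant KDM5A libraries and yellow triangles parental libraries with empty vector. The red squares lie above 0 for chaperones, interferon genes, chemokines and p53 targets and below 0 for EGR1, SPRY4, AXL, clock and H3K4 genes.

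Immediate early transcription factors, which respond within minutes to growth factor signals, moved in both directions. EGR1 (chromosome 5, 138465490 to 138469315), a zinc finger factor of this class, was at 348, 358 and 366 with empty vector and at 162 and 168 with the mutant. Both mutant libraries were below all 3 empty-vector libraries and both parental libraries (337 and 313), a ratio of means of 0.461 (log2 fold change -1.11, SE 0.05, adjusted p = 1.4e-05). In the list 9 of 30 were lower and 4 were higher, with a median of -0.07 (parental 2 minus 1, -0.11). The 9 were 4 without empty-vector library 3 and 5 without mutant library 2, the 4 were 2 without mutant library 1, and 1 of the 9 passed with the covariate. The CArG box, the site of serum response factor, was in 1.29% of promoters and in 2 of 23 of this list. The EGR1 promoter holds 2 matches and is shown for them (chr5:138465334-138465425, plus strand, matches in capitals).
EGR1: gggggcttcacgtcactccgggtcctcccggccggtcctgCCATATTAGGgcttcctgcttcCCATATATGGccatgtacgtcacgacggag

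In a list drawn up for feedback on ERK signalling 6 of 17 genes were lower and 2 were higher, with a median of -0.13 (parental 2 minus 1, -0.11). The 2 were 1 without mutant library 1, and with the covariate 1 was higher and 0 were lower. PHLDA1 fell by 0.39 on the log2 scale. MAFF, a small leucine zipper factor, went the other way, from 69.2, 70.6 and 68.0 to 118 and 125 (log2 fold change 0.80, SE 0.06, adjusted p = 0.000387). Receptor tyrosine kinases were lower in 8 of 28 cases and higher in 1, with a median of -0.22 (parental 2 minus 1, -0.14). AXL, a receptor of this class, was at 71.7, 76.3 and 76.1 with empty vector and at 43.3 and 46.3 with the mutant, without overlap (log2 fold change -0.72, SE 0.08, adjusted p = 0.00167). The 8 were 3 without empty-vector library 2, 2 without empty-vector library 3 and 3 without either mutant library, and 1 passed with the covariate. Of 10 ligands of the EGF family, 1 was higher, AREG by 0.40, and 0 were lower, and without mutant library 2 there were 3 higher.

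Circadian clock genes, which drive daily rhythms of transcription, fell in 7 of 17 cases and 1 was higher (0 with any 1 of the 5 libraries left out), with a median of -0.29 (all genes -0.01, parental 2 minus 1, -0.08). NR1D1 (chromosome 17, 40092787 to 40100725), the repressor REV-ERB alpha, was at 153, 150 and 155 with empty vector and at 85.3 and 85.0 with the mutant. The ratio of means was 0.557 and both parental libraries, at 147 and 138, were on the side of the empty vector (log2 fold change -0.84, SE 0.05, adjusted p = 6.9e-05). NR1D2, its paralog, was at 60.9, 58.9 and 60.9 against 36.8 and 31.5 (log2 fold change -0.81). PER1, a repressor of the core loop, was at 64.5, 75.6 and 67.2 against 36.1 and 43.2 (log2 fold change -0.79, SE 0.10, adjusted p = 0.00385). BHLHE40 fell by 0.29 on the log2 scale. DBP, an output gene of the clock, was chosen after its values were seen. It was at 35.7, 46.5 and 34.0 against 19.7 and 24.7 (log2 fold change -0.77, adjusted p = 0.00872), and without mutant library 1 it did not pass (adjusted p = 0.0548). The count of 7 stayed between 5 and 7 with any 1 of the 5 libraries left out and was 7 with quantile normalization. With the covariate 2 passed.

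The E-box CACGTG, a palindrome bound by CLOCK and by other helix-loop-helix factors, was in 7.43% of promoters, in 4 of 15 promoters of the clock list and in 3 of the 7 that were lower. PER1 is shown as 1 of these (chr17:8152552-8152617, minus strand, match in capitals).
PER1: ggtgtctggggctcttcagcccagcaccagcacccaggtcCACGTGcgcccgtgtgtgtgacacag

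The machinery of lysine 4 methylation, the pathway in which KDM5A acts, changed at a few genes. SMYD2 itself was at 15.2, 14.9 and 14.9 with empty vector and at 17.9 and 16.1 with the mutant and did not pass (log2 fold change 0.17, adjusted p = 0.206). Of 23 tested members other than KDM5A, 1 was higher and 4 were lower, with a median of -0.02, against 9.48% and 7.05% of all genes. KDM5B (chromosome 1, 202724491 to 202809470), the closest relative of KDM5A among these demethylases, was at 25.8, 26.2 and 27.0 with empty vector and at 13.98 and 14.77 with the mutant. The ratio of means was 0.546, and the parental libraries were at 24.5 and 25.2 (log2 fold change -0.83, SE 0.08, adjusted p = 0.00116, with the covariate 0.0375). KMT2E, a protein of the lysine methyltransferase family, was at 31.8, 28.6 and 32.0 against 17.1 and 16.2 (log2 fold change -0.85, SE 0.08, adjusted p = 0.000831). The count of 4 was 2 without empty-vector library 3 and 2 without mutant library 1.

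Of 24 genes for complexes that KDM5A is known to join, 5 were higher (20.8%) and 4 were lower (16.7%), with a median of 0.08. The shares over all genes were 9.48% and 7.05%. TBL1XR1, a subunit of the NCoR corepressor, fell by 0.58 on the log2 scale and GATAD1, a reader of lysine 4 methylation, by 0.47. BRMS1, a SIN3 subunit, rose by 0.44. The 5 were 3 without empty-vector library 1, 2 without empty-vector library 2, 1 without empty-vector library 3 and 1 without mutant library 1. The 4 were 2 without either mutant library, and none of the 9 passed with the covariate.

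Mitotic genes were lower in 12 of 43 cases and higher in 4, with a median of -0.10, and the median for parental 2 minus 1 was on the other side at 0.06. CDC25B, a phosphatase that activates cyclin-dependent kinases, was at 82.8, 87.2 and 86.3 against 59.1 and 59.5 (log2 fold change -0.52, SE 0.05, adjusted p = 0.00151). The proliferation marker MKI67 fell by 0.40 and the kinetochore gene CENPF by 0.46 on the log2 scale. The 12 were 7 without empty-vector library 3, 7 without mutant library 1 and 6 without mutant library 2, and 1 passed with the covariate. The 4 were 0 without empty-vector library 2 or 3 or mutant library 1, and 2 without empty-vector library 1 or mutant library 2. Genes of homologous recombination and the Fanconi pathway had 0 higher and 3 lower of 32 (9.4%, near the 7.05% of all genes). Without any 1 empty-vector library 2 were lower. The median of this list was -0.00 (all genes -0.01). BRCA2 was at 7.54, 5.26 and 8.17 against 2.19 and 3.35 (log2 fold change -1.08, adjusted p = 0.0108), and without mutant library 1 it did not pass (adjusted p = 0.0659). RAD50 had a log2 fold change of -0.54 and did not pass without mutant library 2 (adjusted p = 0.0538).

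TGF-beta and BMP genes were lower in 9 of 26 cases (34.6%, all genes 7.05%) and higher in 1, with a median of -0.22 (parental 2 minus 1, -0.07). The transducer SMAD4 fell by 0.45 and the ligand BMP4 by 0.33 on the log2 scale. The 9 were 5 without empty-vector library 2, 6 without empty-vector library 3, 4 without mutant library 1, 6 without mutant library 2 and 0 with the covariate. HOX genes, which set position along the body axis, were lower in 5 of 26 cases (19.2%, all genes 7.05%) and higher in 0. Their median was -0.21 (parental 2 minus 1, -0.03). HOXB9 fell by 0.51. The 5 were 3 without empty-vector library 1 or 3 and 2 without empty-vector library 2 or mutant library 1, and 0 with the covariate.

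Targets of ATF4, the factor of the integrated stress response, did not rise as a group, with 3 of 22 higher and 4 lower and a median of -0.03. CEBPB fell by 0.49, CHAC1, which degrades glutathione, by 0.67 and SLC7A11, the cystine importer, by 0.64 on the log2 scale. ATF4 itself, also in the list, rose by 0.33 (-0.14 with quantile normalization). NRF2 targets had 7 of 25 higher (4 without mutant library 1) and 4 lower with a median of 0.03, which was -0.15 with quantile normalization and -0.31 on the values as deposited. FTH1 rose by 0.61 (-0.07 with quantile normalization) and OSGIN1 fell by 0.68. Sterol and fatty acid synthesis genes had 3 of 34 higher (8.82%) and 3 lower (8.82%), near the 9.48% and 7.05% of all genes. Their median of 0.01 was -0.20 with quantile normalization and -0.33 on the values as deposited. With the covariate 0 passed. The 3 higher were 0 without mutant library 1 and 1 without empty-vector library 2 or 3, and the 3 lower were 1 without empty-vector library 2 or 3. SREBF1, the factor that drives lipid synthesis genes, fell by 0.68, and MSMO1 rose by 0.35 (0.15 with quantile normalization). Zinc transport and metallothionein genes had 0 higher and 1 lower of 8, the zinc exporter SLC30A1, which fell by 0.70.

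In lists of housekeeping genes, between 14 of 77 and 70 of 79 members rose, and the parental libraries differed in these lists as well. Of 79 cytosolic ribosomal protein genes 70 were higher and 0 lower, with a median of 0.56 and a median of 0.32 for parental 2 minus 1. RPL36A was at 1079, 979 and 1007 against 1697 and 1709, and at 1120 and 1520 in the parental libraries, so the second parental library lay between the groups. RPS7 rose by 0.76. The count was 5 and the median 0.01 with quantile normalization, and 0 members passed with the covariate. Of 79 nuclear genes of oxidative phosphorylation 43 were higher and 0 lower (median 0.34, parental 2 minus 1, 0.20), and NDUFB7 of complex I rose by 0.67. Of 13 mitochondrial genome transcripts 10 were higher (median 0.48, parental 2 minus 1, 0.28), a median that turned to -0.29 with quantile normalization. Of 34 proteasome subunits 21 were higher and 0 lower (0.32, parental 2 minus 1, 0.15), and PSMD8 rose by 0.56. Translation factors had 19 of 39 higher and 1 lower (0.30, parental 2 minus 1, 0.15), with a median of -0.08 after quantile normalization. Mitochondrial ribosomal proteins had 14 of 77 higher and 1 lower (0.17, parental 2 minus 1, 0.14), and MRPL55 rose by 0.45. With the covariate 0 members of the oxidative phosphorylation, mitochondrial genome and proteasome lists passed, and 1 member each of the lists of translation factors and mitochondrial ribosomal proteins.

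These counts also moved with single libraries. The 43 oxidative phosphorylation genes were 18 without empty-vector library 2, 19 without empty-vector library 3, 23 without mutant library 1 and 25 without mutant library 2. The 10 mitochondrial transcripts were 2, 4 and 0 without empty-vector library 2, empty-vector library 3 and mutant library 1. The 21 proteasome genes were 8, 8 and 5, the 19 translation factors 11, 12 and 8, and the 14 mitochondrial ribosomal proteins 6, 4 and 8 without the same 3 libraries. The ribosomal protein count was 48 or more with any 1 of the 5 libraries left out.

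The remaining lists held fewer genes that passed, and most of their counts depended on single libraries. Chaperonin and prefoldin genes had 8 of 14 higher (2 without mutant library 1, 3 without empty-vector library 2 or 3), with a median of 0.28 (parental 2 minus 1, 0.09) that was -0.07 with quantile normalization. Sm and LSm splicing proteins had 6 of 20 higher (1 without empty-vector library 2 or 3 or mutant library 2, 2 without mutant library 1), with a median of 0.24 close to that of parental 2 minus 1 (0.22), and LSM7 rose by 0.78. RNA polymerase II subunits had 7 of 12 higher (3 without empty-vector library 2 or 3 or mutant library 1), with a median of 0.32 (parental 2 minus 1, 0.08). Mediator subunits had 2 of 33 higher and 5 lower (2 without empty-vector library 2 or 3, 3 without mutant library 1). MED26 rose by 0.71 and MED18 fell by 0.58 on the log2 scale. Tubulin and actin genes had 9 of 25 higher and 1 lower, with a median of 0.17 (parental 2 minus 1, 0.05) that was -0.11 with quantile normalization, and TUBB2A rose by 0.76. The 9 were 5 without empty-vector library 3 and 4 without mutant library 1. Integrin and laminin genes had 0 of 30 higher and 6 lower, and the 6 were 2, 0 and 1 without empty-vector library 2, empty-vector library 3 and mutant library 1. Replication-dependent histone genes had 2 of 41 higher and 2 lower (0 lower without mutant library 1, 4 lower without mutant library 2). With the covariate 0 members of the chaperonin, Sm and LSm, polymerase and Mediator lists passed, and 1 each of the tubulin, integrin and histone lists.

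**Figure D3:**
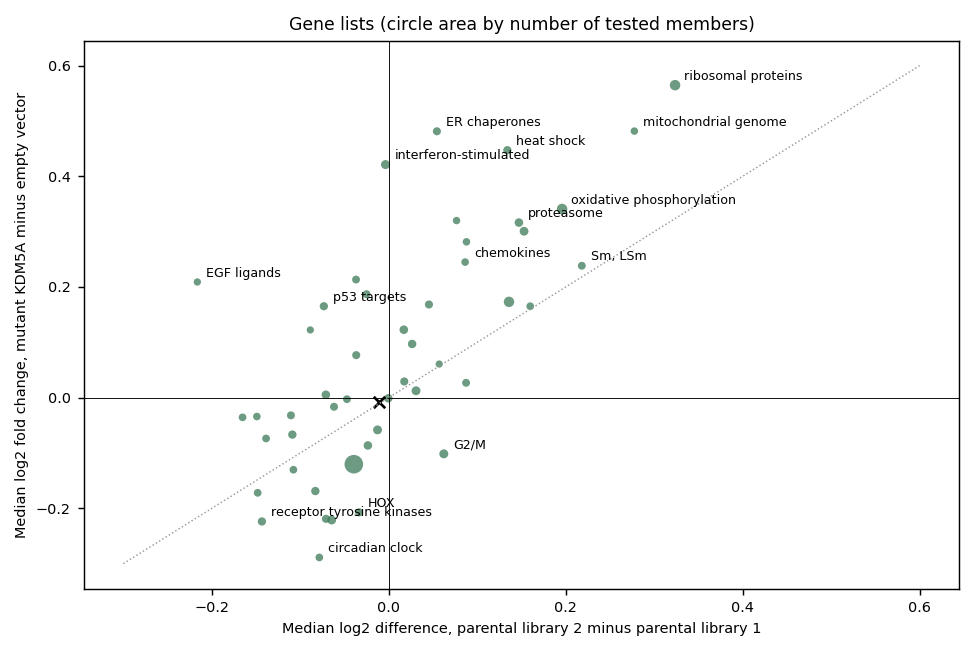
Median log2 fold change of each drawn gene list for mutant KDM5A against empty vector (vertical axis) against the median log2 difference of parental library 2 minus parental library 1 (horizontal axis), 1 circle per list with its area by the number of tested members, a cross for all genes and a dotted line where both are equal. The list of abundant nuclear and small RNAs (7 tested members, medians 1.14 and 0.55), which lies beyond the others on both axes, is not drawn. Ribosomal proteins lie far along both axes (0.56 and 0.32), and interferon-stimulated genes (0.42) and endoplasmic reticulum chaperones (0.48) lie high at -0.00 and 0.05 on the horizontal axis.

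The share of genes that passed also varied with exonic length. Protein-coding genes were divided by length into 5 bins of equal size, and in the shortest bin (207 to 2778 bases) 18.8% were higher and 4.99% lower, while in the longest (8111 to 46064 bases) 5.27% were higher and 13.7% lower. The medians went from 0.10 to -0.10. Between the parental libraries the medians went from 0.03 to -0.05 over the same bins. After each library was corrected for its trend with exonic length, 2726 genes passed. Cytosolic ribosomal proteins then had 70 of 79 higher (median 0.56) and oxidative phosphorylation genes 39 of 79 (median 0.30). Mitochondrial ribosomal proteins had 9 of 77 higher (median 0.13). Zinc finger genes named ZNF had 47 of 369 lower and 16 higher with a median of -0.12, and ZNF608 fell by 1.18 and ZNF655 by 0.49. The 47 were 24, 18 and 17 and the 16 were 5, 4 and 4 without empty-vector library 2, empty-vector library 3 and mutant library 1, and the 16 were 6 without empty-vector library 1. With the covariate 0 were lower and 1 was higher. Processed pseudogenes were higher in 104 of 1186 cases (8.77%, all genes 9.48%) and lower in 24 (2.02%, all genes 7.05%). The share of rises was thus not above that of all genes. Their median of 0.16 was below the 0.25 of parental 2 minus 1.

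**Figure D4:**
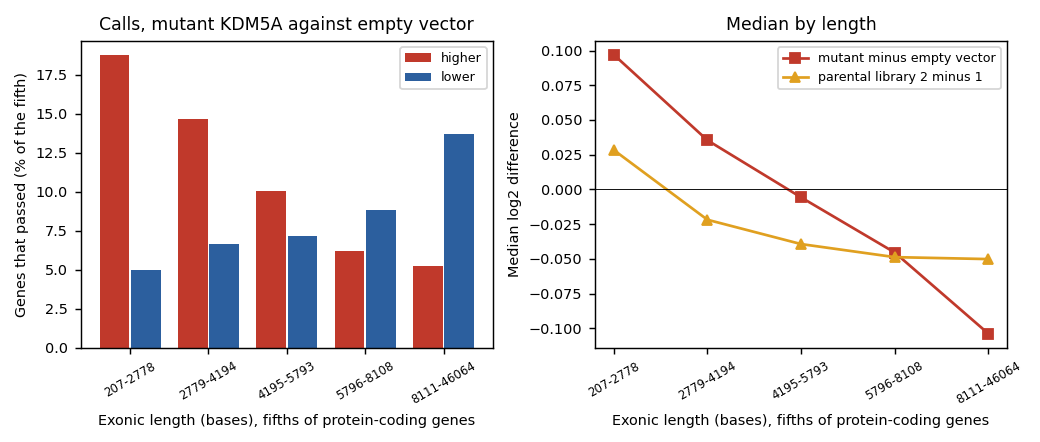
Bins of protein-coding genes of equal size by exonic length in bases (horizontal axes). The left panel gives the percent of each bin that passed as higher (red bars) or lower (blue bars) with mutant KDM5A, and the right panel the median log2 difference for mutant minus empty vector (red squares) and for parental library 2 minus 1 (yellow triangles). The share of higher genes falls from 18.8% to 5.27% and the share of lower genes grows from 4.99% to 13.7% from the shortest to the longest bin.

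Further named genes changed as well. HP, the haemoglobin-binding plasma protein haptoglobin, was at 1.34, 1.76 and 1.51 with empty vector and at 6.14 and 18.05 with the mutant (log2 fold change 2.21, SE 0.34, adjusted p = 0.00612). POU2F2, an octamer-binding factor known from B cells, was at 1.97, 2.14 and 1.53 against 9.80 and 9.14 (log2 fold change 1.87). Among falls, NAIF1 was at 20.9, 22.0 and 22.2 against 9.51 and 9.35 (log2 fold change -1.12, SE 0.08, adjusted p = 0.000306). PLCB1, a phospholipase of G protein signalling, was at 6.26, 6.45 and 8.35 against 1.95 and 2.98 (log2 fold change -1.22). The architectural long non-coding RNA NEAT1 was at 189, 201 and 175 against 400 and 413 (log2 fold change 1.11, SE 0.07, adjusted p = 0.000111). RN7SK, the RNA that restrains P-TEFb, was at 23.7, 22.1 and 15.5 against 58.4 and 593, so 1 of the 2 mutant libraries set its mean. It had a log2 fold change of 3.15 (SE 0.73, adjusted p = 0.0215) and its adjusted p was 0.0566 without empty-vector library 2 and 0.0678 without empty-vector library 3. RN7SL3, a signal recognition particle RNA with near-identical copies, was at 24.3, 9.08 and 42.0 against 121 and 275, and it did not pass without mutant library 2 (adjusted p = 0.0563). MALAT1, a nuclear long non-coding RNA, was at 97.7, 77.5 and 74.1 against 166 and 202 (log2 fold change 1.14, adjusted p = 0.0495), and at 75.3 and 208 in the parental libraries. It did not pass with any 1 of the 5 compared libraries left out (adjusted p from 0.0695 to 0.163).

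The direct contrast of mutant with wild-type KDM5A asks whether the mutant protein acts differently from the wild type in the same cells. In the fit of all 10 libraries 10 genes passed (0.0562%), 6 higher (0.0337%) and 4 lower (0.0225%), while 3583 had an unadjusted p under 0.05. Without parental library 2, when the spread between the parental pair no longer enters the fit, 688 genes were higher (3.87%) and 282 lower (1.59%), and these held all 10. Without mutant library 2, 49 passed. The count was 5 without wild-type library 2, 5 without empty-vector library 1 and 6 without empty-vector library 2. KDM5A itself was higher with the mutant plasmid (23346 and 22816) than with the wild-type plasmid (means 23081 and 15096), a log2 difference of 0.62 with an adjusted p of 0.0926 in the full fit and 0.0214 without parental library 2. The wild-type libraries also differed from the mutant libraries in make-up. Protein-coding genes took 92.8% to 93.0% of their summed values, ribosomal protein genes 13.0% to 13.6% and small non-coding RNAs 0.928% to 0.986%. Any effect of the mutation, of the higher plasmid transcript and of this make-up therefore cannot be told apart.

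In the heat shock list 7 of 28 genes were higher with the mutant than with the wild type without parental library 2, and the 3 given here did not pass with all libraries. HSPA1A was at 518, 470 and 499 with the wild type, above all empty-vector libraries and below both mutant libraries (0.86, SE 0.15, adjusted p = 0.0806, and 0.00109 without parental library 2). HSPA1B had the same order, at 692, 688 and 719 (0.64, adjusted p = 0.058 and 0.00102). DNAJB1 was at 248, 255 and 246 (0.24, adjusted p = 0.0849 and 0.0178). BAG3 did not pass in either fit (0.11, adjusted p = 0.207 and 0.153). Without parental library 2, 63 of 79 ribosomal protein genes and 26 of 79 oxidative phosphorylation genes were higher with the mutant than with the wild type. These lists had medians of 0.32 and 0.20 for parental 2 minus 1. That difference was 0.66 for HSPA1A, 0.39 for HSPA1B and -0.02 for DNAJB1.

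Between the plasmids, none of CXCL8, IFI6, ISG15, EGR1, NR1D1 and KDM5B passed in the fit of all libraries. CXCL8 was at 150, 154 and 149 with the wild type and differed by -0.19 (SE 0.10, adjusted p = 0.328). IFI6 was at 81.7, 93.1 and 94.7 and differed by -0.11 (SE 0.08, adjusted p = 0.483). ISG15 differed by 0.22 (adjusted p = 0.109, and 0.0476 without parental library 2). The interferon list had a median of -0.02 and the chemokine list of -0.23 between the plasmids. Without parental library 2, 1 of 44 interferon-stimulated genes was higher with the mutant and 1 was lower. Of 15 members of the chemokine list 0 were higher and 2 were lower (all genes 3.87% and 1.59%). EGR1 was at 183, 188 and 187 (-0.17, adjusted p = 0.121) and NR1D1 at 96.3, 97.6 and 99.6 (-0.20, adjusted p = 0.0952, and 0.0362 without parental library 2). KDM5B was at 15.6, 18.6 and 17.0 and differed by -0.23 (SE 0.08, adjusted p = 0.172). A p that misses the threshold does not show that both proteins act alike. SLC7A11 (-0.45), TBL1XR1 (-0.50) and OSGIN1 (-0.39) were lower with the mutant than with the wild type without parental library 2, with adjusted p-values of 0.0044, 0.0064 and 0.0091, and did not pass with all libraries (0.058, 0.0523 and 0.0894).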

How the data were processed

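RNA was measured in 10 libraries. Per the submitters' processing notes, the tools were Cufflinks 2.2.1, STAR 2.7.1a, GATK 4.1.2 and Picard, with GRCh38. Their order, the annotation and the strand setting are not given in the sources used here. The authors deposited log2 values, log2(FPKM + 1), for 60141 loci per library, and no read counts were used, so depth and counting precision are unknown. Values were made linear, summed per symbol (57993), scaled by median of ratios over 13651 genes and kept at 1 or more in 2 libraries (17779 genes). limma 3.58.1 in R 4.3.3 tested log2(value + 1), two-sided, in 1 trended fit of 10 libraries in 4 groups (6 residual and 2.99 prior degrees of freedom). Such differences understate the change of low genes. GENCODE 29 gave types and lengths for 98.0% of tested genes. The fit was tried on simulated data with changes set in 200 of 17779 genes. It recovered 32.8%, 80.6% and 93.9% of log2 changes of 0.5, 1 and 2, with 6 false calls. The simulated spread was independent between genes, so the simulation cannot show how the fit behaves under a shared shift in library make-up.

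The comparison and the 49 gene lists were chosen with earlier results of these data known. Genes were named by a rule: KDM5A, the 15 largest rises and falls of protein-coding genes that passed without overlap at a level of 5 or more, the 5 largest each way of other types, the 4 tested members with the smallest p in each list, and the 5 largest each way that passed against both other plasmids. Some of these are only counted. HSPA6 and DBP were added after their values were seen, and other genes outside the rule appear only as checks. Lists carry no test. The 25 alternatives are given in the closing section.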

Additional observations from a re-analysis of the deposited data

Results flagged for a closer look

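The difference between the mutant and the wild-type plasmid was tested directly, with limma over all 10 libraries, and the genes here are those named that passed it. TTC28-AS1_2, a small RNA locus on chromosome 22 (27922022 to 27922178), was at 519 and 330 in the mutant libraries, a mean of 424, and was listed at 0 in the other 8 libraries. RN7SL573P, a signal recognition particle pseudogene, was at 7.14 and 4.83, a mean of 5.98, and was likewise listed at 0 elsewhere. HIST2H4B, a histone H4 gene with a near-identical copy that makes its value uncertain, was at 41.7 and 28.2 with the mutant and at 7.76, 8.76 and 10.2 with the wild type (difference 1.84, adjusted p = 0.00948). ANKRD12 was at 17.3 and 13.6 against 7.403, 5.98 and 7.78 (difference 1.03, adjusted p = 0.0497). Its rise against empty vector did not pass without mutant library 1 (adjusted p = 0.0593). VPS13A was at 14.1 and 14.96 against 26.7, 31.3 and 26.5 (difference -0.90, adjusted p = 0.0497). The processed pseudogene EEF1DP2 was listed at 0 in 1 mutant library and was at 0.012 in the other, against 4.78, 5.48 and 8.49 (difference -2.82, adjusted p = 0.02). The processed pseudogene RP11-114H23.3 was listed at 0 in both mutant libraries, against 9.67, 13.9 and 7.27 (fitted difference -3.45, adjusted p = 0.0497).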

How the results depend on the processing

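The number of genes that passed against empty vector (2939) was 6615 on the values as deposited (466 higher, 6149 lower), 1838 with the 5 compared libraries alone (692 lower), 144 with the covariate (98 higher, 46 lower), 4483 at an adjusted p under 0.1 (2065 lower) and 273 at a log2 fold change of at least 1 (189 higher, 84 lower). Quantile normalization gave 887 higher genes and array weights 760 lower ones. With 1 of the 5 libraries left out it ran from 1215 (690 higher, 525 lower, without mutant library 1) to 2644 (1530 higher, 1114 lower, without mutant library 2); a lone mutant library is assumed to vary like the other groups. The cause of these shifts was not tested.

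For mutant against wild type (10) the count was 1496 as deposited, 6 with quantile normalization, 93 without a filter, 3 at a mean of at least 5, 3 with array weights, 643 at an adjusted p under 0.1, 1 with the covariate and 6 with a length correction. It was 970 without parental library 2, and likewise without parental library 1 or both, which were alternatives added after seeing the data, as was leaving out each wild-type library. With 1 knockout library left out, of any plasmid, it ran from 5 to 49.

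Replicate numbers are shared by the groups but nothing states that they pair the samples; deviations of same-numbered libraries correlated at 0.051 and 0.024. With a replicate block 1109 genes passed against empty vector (680 higher, 429 lower) and 1 against wild type.

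Of 80 named genes that passed, 73 passed with any 1 of the 5 libraries left out, 73 with quantile normalization, 71 as deposited, 44 with the covariate and 77 with the replicate block, and 0 reversed under these settings. The 80 do not include ATF4, FTH1 and MSMO1. Depth is unknown, so how far it limits genes at low values cannot be given.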
